A study of Rattus norvegicus with 16 samples.

Results

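The genes described are 10 macrophage genes, followed through the ventral prostate of rats (Rattus norvegicus) whose mothers ate a low protein diet or a normal one. They are the rows with the symbols Csf1r, Cd68, Aif1, Adgre1, Cd14, C1qa, C1qb, C1qc, Cd163 and Mrc1, out of 19709 gene names that both deposited count tables hold, and all 10 passed the filter on low counts in every comparison. The groups were 4 glands of postnatal day (PND) 540 from offspring of dams on 6% protein through gestation and lactation (GLLP) and 5 of PND540 from offspring of control dams on 17% protein (CTR), and 3 GLLP and 4 CTR glands of PND21. Messenger RNA of the whole gland was sequenced, at 28748604 to 39161666 counts per library. The labels call the controls' diet gestational only, and give no strain, litter, pooling or diet after weaning. They number the glands within each group, and since nothing ties a number to a separate animal, the p-values reflect spread among these samples, possibly of technical origin.

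Macrophages live in nearly every tissue, where they engulf dead cells and debris, take up secreted material and release signals to neighbouring cells. Their survival depends on signals through the receptor encoded by Csf1r, and their identity on the transcription factor PU.1, encoded by Spi1. In the prostate they lie mainly in the stroma around the ducts. Cd68 encodes a lysosomal glycoprotein, Aif1 the cytoskeletal protein IBA1, and Adgre1 the adhesion receptor known in mouse as F4/80. Cd14 encodes a co-receptor for bacterial lipopolysaccharide, which cells other than macrophages can also make. C1qa, C1qb and C1qc encode the chains of C1q, the recognition part of the classical complement pathway, which tissue macrophages make. Cd163 and Mrc1 are scavenger receptors, for haemoglobin bound to haptoglobin and for mannose-bearing glycoproteins, and are widely used as marks of resident macrophages.

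All levels below are CPM, read counts relative to library size, on a single scale for the 16 libraries, with TMM-scaled library sizes over the shared gene names. Values for single libraries follow the order of their replicate numbers: 1 to 4 for PND540 GLLP, 1 to 5 for PND540 CTR, 2 to 4 for PND21 GLLP and 1 to 4 for PND21 CTR. Where SD is given, n is 4 for PND540 GLLP, 5 for PND540 CTR, 3 for PND21 GLLP and 4 for PND21 CTR. A gene was called where edgeR's quasi-likelihood test gave a Benjamini-Hochberg adjusted p below 0.05 over all genes tested. Fold changes are log2 values of GLLP over CTR or of PND540 over PND21. In whole glands fewer macrophages and less RNA per macrophage cannot be told apart.

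**Figure D1:**
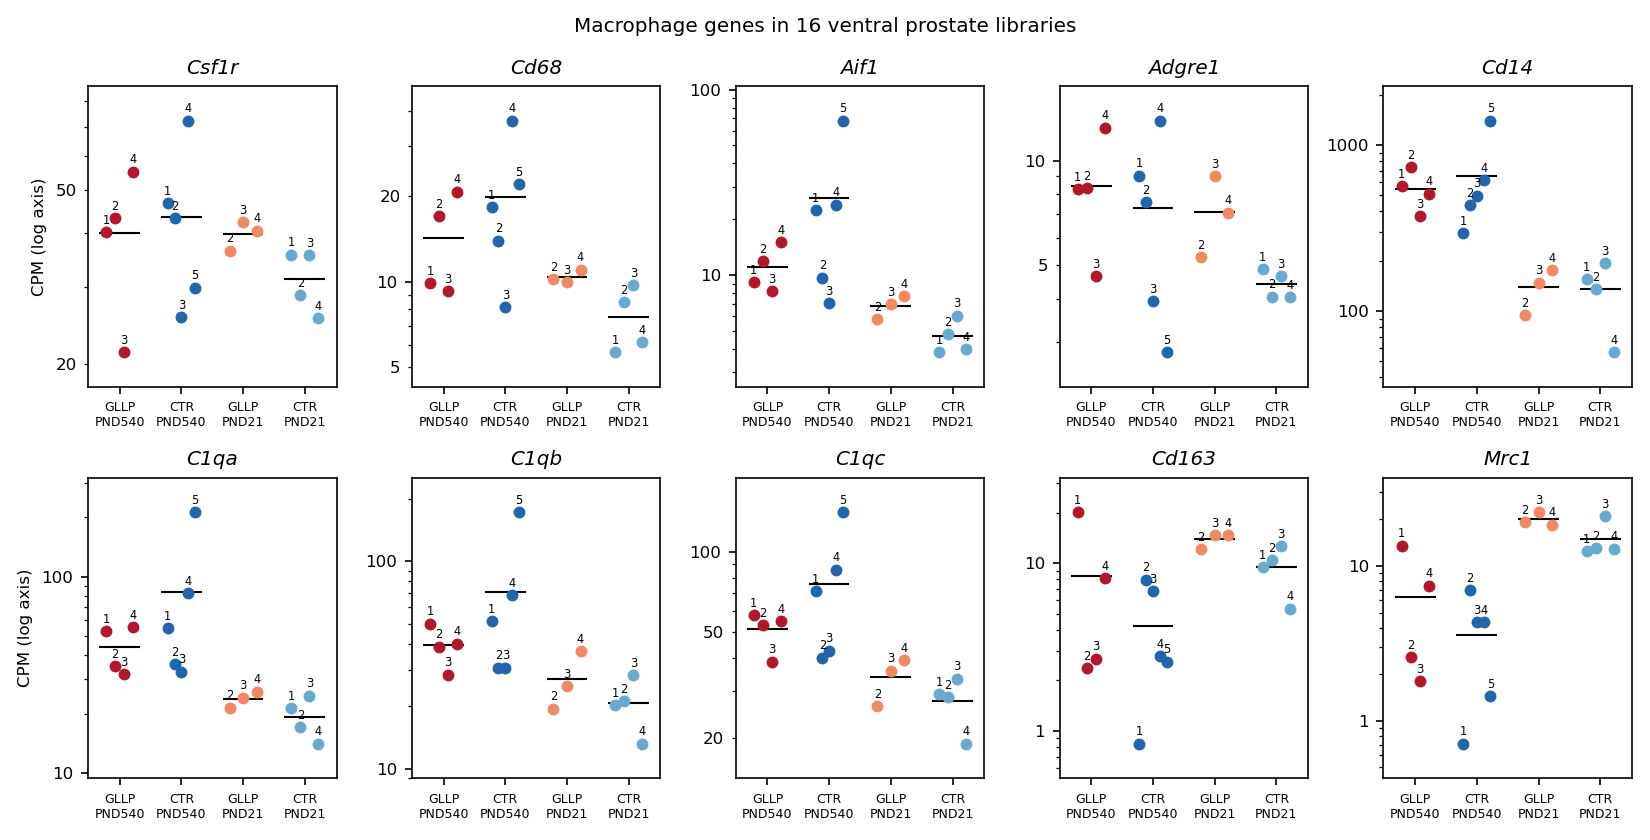
CPM of the 10 macrophage genes (log axis) in each library, by group; points are libraries, small digits their replicate numbers, and lines the group means. Cd14 lies higher and Mrc1 lower in every PND540 library than in every PND21 library of the same diet group, and replicate 5 of PND540 CTR holds the highest value of Aif1, Cd14 and the 3 C1q genes.

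The libraries showed the tissue named in their labels. Krt8, a keratin gene of luminal epithelium, averaged 934 ± 173 CPM in PND540 GLLP, 1243 ± 578 in PND540 CTR, 494 ± 34.6 in PND21 GLLP and 620.5 ± 78.9 in PND21 CTR. Hoxb13, a homeobox gene expressed in prostate epithelium, averaged 558 ± 131 CPM in PND540 GLLP, 536 ± 97 in PND540 CTR, 500.5 ± 46.4 in PND21 GLLP and 487 ± 34.6 in PND21 CTR (SD throughout). Library PND540 CTR replicate 5 stood apart, with a median correlation of log2 CPM with the other 8 PND540 libraries of 0.877, against 0.962 to 0.974 for each of the others. Its level of short genes was high: relative to the mean of the other 4 CTR libraries, the median log2 difference was 0.66 for the third of genes with the shortest span and -0.78 for the third with the longest. Mitochondrial genes took 0.0150% to 0.0413% of counts at PND540 and 3.70% to 5.05% at PND21, except 0.304% in PND21 CTR replicate 1. At PND21 the GLLP libraries held skeletal muscle RNA: 8 muscle genes summed to 389 to 681 CPM in PND21 GLLP and 12.9 to 19.9 in PND21 CTR.

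The promoters of 4 members are printed to set genes with higher levels at PND540 (Cd14 in both diet groups, C1qb in CTR) beside the scavenger receptor genes Mrc1, lower there in CTR, and Cd163, which passed in neither group. Each line gives the 250 bases before the start in RefSeq's annotation of GRCr8, read 5′ to 3′ along the gene, with capitals where GAGGAA, a core sequence bound by PU.1, occurs on either strand (TTCCTC on the other). Windows for 8 of the 10 members were matched by symbol; C1qc and Aif1 have none in the table.
Cd14, chr18:28611159-28611408, minus strand: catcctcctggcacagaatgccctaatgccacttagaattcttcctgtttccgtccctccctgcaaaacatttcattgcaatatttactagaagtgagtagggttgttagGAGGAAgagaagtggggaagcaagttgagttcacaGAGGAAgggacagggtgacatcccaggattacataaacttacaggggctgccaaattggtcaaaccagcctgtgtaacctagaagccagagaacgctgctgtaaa
C1qb, chr5:154407828-154408077, minus strand: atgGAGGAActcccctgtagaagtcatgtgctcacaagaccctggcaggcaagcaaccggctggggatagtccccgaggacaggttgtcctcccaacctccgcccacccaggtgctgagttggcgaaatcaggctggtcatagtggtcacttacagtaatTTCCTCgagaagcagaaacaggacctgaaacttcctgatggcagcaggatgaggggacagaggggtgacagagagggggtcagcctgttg
Cd163, chr4:158770524-158770773, plus strand: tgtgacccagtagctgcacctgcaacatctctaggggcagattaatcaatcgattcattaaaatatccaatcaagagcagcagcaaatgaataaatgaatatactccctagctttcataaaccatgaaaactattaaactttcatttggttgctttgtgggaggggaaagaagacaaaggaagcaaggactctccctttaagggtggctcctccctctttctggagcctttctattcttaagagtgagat
Mrc1, chr17:82157475-82157724, plus strand: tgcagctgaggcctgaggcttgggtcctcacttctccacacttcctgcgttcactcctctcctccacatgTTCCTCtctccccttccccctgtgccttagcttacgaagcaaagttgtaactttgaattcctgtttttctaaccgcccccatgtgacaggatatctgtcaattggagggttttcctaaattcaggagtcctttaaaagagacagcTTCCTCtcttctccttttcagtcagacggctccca
The motif occurred in the windows of 6 of the 8 members, in 23 of 54 windows of the other macrophage genes (42.6%), and in 23.3% of the 33469 windows of all genes. In Cd14 it lay from -140 to -135 and from -105 to -100 relative to the start, in C1qb from -247 to -242 and from -90 to -85, and in Mrc1 from -180 to -175 and from -35 to -30. The windows of Csf1r (2 matches), Adgre1 and Cd68 (1 each) held it as well, and those of Cd163 and C1qa did not. Matches occurred in Mrc1 as in Cd14, and a match describes these letters alone.

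At PND21 no macrophage gene passed the test between the diets, although all 10 had a positive fold change. The count of 0 of 10 in edgeR stood against 1.11% of the 14915 genes tested, and 4 of the 10 had an unadjusted p below 0.05, as did 19.3% of all genes. The median log2 fold change was 0.41 over the 10 genes and 0.00 over all genes, 49.5% of which were positive. DESeq2 called 1 of the 10, Adgre1 (adjusted p = 0.034), and 4.6% of all genes it fitted. Other measures differed between these groups as well. The muscle sums given above did not overlap, nor did those of the dendritic cell list, 11.4 to 15.4 CPM in PND21 GLLP and 8.29 to 10.9 in PND21 CTR. The fibroblast list summed to 5685 to 7149.8 CPM in PND21 GLLP and 3968 to 5876 in PND21 CTR. Of the PND21 libraries CTR replicate 4 held the lowest level of 7 of the 10 genes. The part of these in the result was not tested.

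The growth factor receptor gene Csf1r stood at 36.4, 42.3 and 40.4 CPM in the 3 PND21 GLLP libraries, against 35.6, 28.8, 35.5 and 25.5 CPM in the 4 PND21 CTR libraries. The groups did not overlap, by a narrow margin, and the log2 fold change was 0.34 (SE 0.14) with edgeR's adjusted p = 0.217. Adgre1 had 5.27, 9.02 and 7.08 CPM in PND21 GLLP and 4.88, 4.06, 4.65 and 4.05 CPM in PND21 CTR. It had the largest fold change of the 10 at this age, 0.70 (SE 0.20), and GLLP replicate 2 lay close to the CTR libraries (edgeR adjusted p = 0.127). Without GLLP replicate 2 the adjusted p of Adgre1 was 0.025, in a fit that called 1509 genes in place of 166. The lysosomal gene Cd68 was at 10.2, 9.96 and 11 CPM in PND21 GLLP and at 5.65, 8.47, 9.71 and 6.12 CPM in PND21 CTR, again without overlap. These 3 genes were the ones with every GLLP library above every CTR library, 3 of 10, where 9.49% of all genes tested showed that pattern.

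For the other 7 genes the groups overlapped. Aif1 stood at 5.81, 7 and 7.69 CPM in PND21 GLLP and 3.85, 4.82, 6.06 and 3.99 CPM in PND21 CTR, where CTR replicate 3 reached the GLLP range. Cd163 had 12.1, 14.8 and 14.8 CPM in PND21 GLLP, against 9.51, 10.4, 12.6 and 5.35 CPM in PND21 CTR. Mrc1 was at 19.2, 22.3 and 18.5 CPM in PND21 GLLP and 12.5, 13, 21 and 13 CPM in PND21 CTR. For all 3 genes CTR replicate 3 held the highest CTR value, and the edgeR adjusted p was 0.195 for Aif1 and 0.262 for both scavenger receptors. The C1q genes had log2 fold changes of 0.31 (SE 0.18) for C1qa, 0.39 (SE 0.27) for C1qb and 0.30 (SE 0.20) for C1qc. Cd14 differed least, with 94.5, 149 and 177 CPM in PND21 GLLP and 156, 136, 194 and 56.8 CPM in PND21 CTR. CTR replicate 4 lay far below the other CTR libraries here, and without it the fold change of Cd14 was negative (-0.20).

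**Figure D2:**
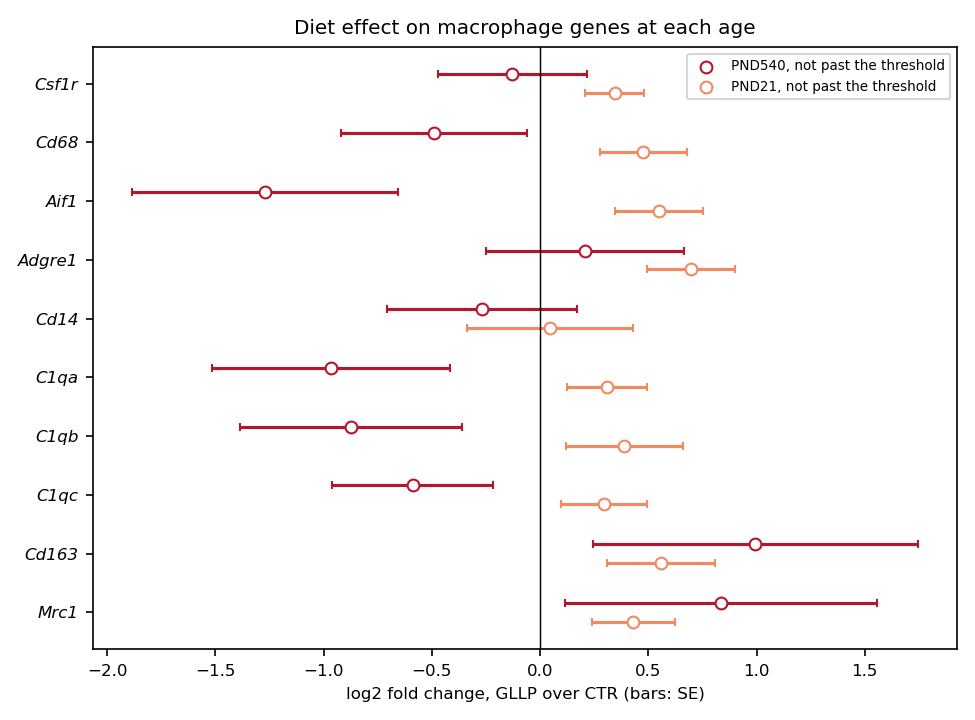
Log2 fold change of GLLP over CTR for each macrophage gene at PND540 (upper point of each pair) and PND21 (lower point), with bars of 1 SE. None of the 20 values passed the threshold; at PND21 all 10 lie above 0, and at PND540 3 lie above 0 and 7 below.

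At PND540 no macrophage gene passed the test between the diets either, and the groups overlapped for all 10. With edgeR 0 of 10 were called, against 0% of the 14767 genes tested, 0 of the 10 had an unadjusted p below 0.05 (0.833% of all genes), and DESeq2 called 0 of the 10. Groups without overlap were rare at this age, at 0.393% of all genes tested. Of the 10 fold changes 3 were positive and 7 negative, with a median of -0.38 on the log2 scale, and the median over all genes was 0.00. The edgeR adjusted p lay between 0.914 and 0.935 for every member.

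The spread within each PND540 group was wide and differed in kind between the genes. C1qa stood at 52.6, 34.9, 31.9 and 55.2 CPM in the 4 PND540 GLLP libraries, against 54.5, 35.9, 32.9, 82.6 and 212 CPM in the 5 PND540 CTR libraries. CTR replicate 5 lay far above the rest, and CTR replicates 1, 2 and 3 lay within the GLLP range. Aif1 had 9.17, 11.9, 8.2 and 15.1 CPM in PND540 GLLP and 22.4, 9.72, 7.08, 24 and 68 CPM in PND540 CTR, with the same library highest. Aif1 had the largest diet value of the 10 at this age, a log2 fold change of -1.27 (SE 0.61), and it was -0.51 without CTR replicate 5. The values of C1qa, C1qb and C1qc were -0.96, -0.87 and -0.59 with all libraries. Without CTR replicate 5 they came to -0.23, -0.20 and -0.22. The C1q genes and Aif1 are short, and over all genes the median diet value of the third with the shortest span was -0.22, or -0.03 without that library.

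Cd163 and Mrc1 varied most within PND540, and in other libraries than the C1q genes did. Cd163 stood at 20.2, 2.36, 2.7 and 8.16 CPM in PND540 GLLP and at 0.838, 7.98, 6.81, 2.78 and 2.58 CPM in PND540 CTR. Mrc1 was at 13.5, 2.58, 1.81 and 7.45 CPM in PND540 GLLP and 0.712, 6.97, 4.33, 4.36 and 1.45 CPM in PND540 CTR. For both genes GLLP replicate 1 was highest and CTR replicate 1 lowest of the 9 libraries, 24.1-fold apart for Cd163 and 19.0-fold for Mrc1. Their diet values, 0.99 (SE 0.75) and 0.83 (SE 0.72) on the log2 scale, came to 0.07 and 0.15 without GLLP replicate 1. CTR replicate 1 held the lowest level of 3 members: Cd163, Mrc1 and Cd14 (296 CPM). It was not low in every member, as its C1qc value of 71.2 CPM was exceeded in CTR replicates 4 and 5 alone.

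The remaining genes took a different order again. Csf1r was at 40.2, 43.3, 21.3 and 55.2 CPM in PND540 GLLP and 46.7, 43.2, 25.6, 72.2 and 29.9 CPM in PND540 CTR. Adgre1 had 8.29, 8.34, 4.65 and 12.4 CPM in PND540 GLLP and 9.05, 7.61, 3.95, 13 and 2.81 CPM in PND540 CTR. Cd68 stood at 9.9, 17, 9.27 and 20.8 CPM in PND540 GLLP, against 18.3, 13.9, 8.14, 36.9 and 22 CPM in PND540 CTR. For these 3 genes CTR replicate 4 was the highest library, and CTR replicate 5, highest for 5 others, was the lowest for Adgre1. Cd14 had 566, 739, 372 and 509 CPM in PND540 GLLP and 296, 436, 495, 612 and 1401 CPM in PND540 CTR. The 10 genes thus peaked in 3 different libraries at PND540: 5 in CTR replicate 5, 3 in CTR replicate 4, and 2 in GLLP replicate 1.

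**Figure D3:**
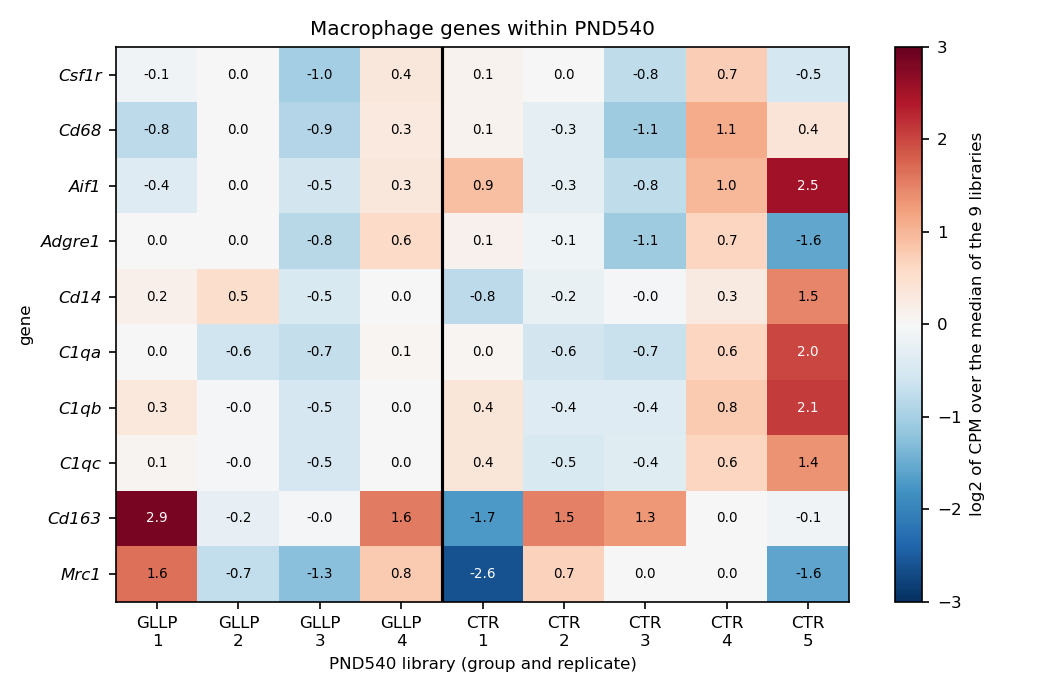
Level of each macrophage gene (rows) in each PND540 library (columns, 4 GLLP left of the line and 5 CTR right of it), as log2 of its CPM over the median of the 9 libraries. Aif1 and the C1q genes are highest in CTR replicate 5, Csf1r, Cd68 and Adgre1 in CTR replicate 4, and Cd163 and Mrc1 in GLLP replicate 1.

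Between the ages the 10 genes split: Cd14 and C1q genes were higher at PND540 in both diet groups, and Mrc1 was lower in CTR. In GLLP 3 of 10 were called higher (C1qa, C1qc and Cd14) and 0 lower, where 19.1% of the 13694 genes tested were called higher and 17.1% lower. In the same fit Mrc1 and Aif1 also had an unadjusted p below 0.05, making 5 of 10 (45.4% of all genes). DESeq2 called both, 4 higher and 1 lower in all (18.2% and 16.6% of the genes it fitted). Without TMM scaling edgeR called 1 higher in GLLP (Cd14) and 1 lower (Mrc1), and C1qa and C1qc were lost. That fit called 14.3% of all genes higher and 21.3% lower. In CTR 6 of 10 were called higher (Cd68, Aif1, Cd14, C1qa, C1qb and C1qc) and 1 lower (Mrc1), where 17.3% of the 13510 genes tested were called higher and 13.2% lower. The ages did not overlap for 3 members higher at PND540 and 1 lower in GLLP (22.8% and 21.9% of all genes), and for 5 higher and 1 lower in CTR (18.7% and 19% of all genes). The 3 genes higher in GLLP were all among the 6 higher in CTR, 50.0% of the CTR calls. The median log2 fold change of the 10 genes was 0.49 in GLLP and 1.44 in CTR, and that of all genes tested 0.02 and 0.07. Since each age's table has its own gene annotation, what the annotations alone changed in the counts is contained in every age value.

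Cd14 rose in both diet groups. It averaged 546 ± 152 CPM in PND540 GLLP (SD, n = 4) and 140.0 ± 41.8 CPM in PND21 GLLP (SD, n = 3), a 3.87-fold rise with a log2 fold change of 1.95 (SE 0.30) and edgeR adjusted p = 0.0011. In CTR the averages were 648 ± 436 CPM at PND540 (SD, n = 5) and 136 ± 58 CPM at PND21 (SD, n = 4), with a log2 fold change of 2.26 (SE 0.51) and edgeR adjusted p = 0.00798. As the values of the libraries show, the ages did not overlap in either diet group.

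The C1q genes were higher at PND540 as well, all 3 in CTR and 2 of 3 in GLLP. C1qa averaged 43.7 ± 11.9 CPM in PND540 GLLP (SD, n = 4) and 23.9 ± 2.24 CPM in PND21 GLLP (SD, n = 3), a 1.81-fold rise (edgeR adjusted p = 0.0173). In CTR it averaged 83.6 ± 74.6 CPM at PND540 and 19.4 ± 4.69 CPM at PND21, 4.31-fold (edgeR adjusted p = 0.0176). C1qb stood at 50.1, 38.8, 28.4 and 40.1 CPM in PND540 GLLP and 19.5, 24.9 and 36.8 CPM in PND21 GLLP, which overlapped (edgeR adjusted p = 0.152). In CTR it was at 51.3, 30.7, 30.7, 68.9 and 173 CPM at PND540 and 20.3, 21.2, 28.2 and 13.2 CPM at PND21, without overlap (edgeR adjusted p = 0.0304). C1qc had 57.9, 53.2, 38.7 and 54.9 CPM in PND540 GLLP and 26.4, 35.9 and 39.2 CPM in PND21 GLLP, where the lowest PND540 library lay just under the highest PND21 library, and passed narrowly (edgeR adjusted p = 0.0458). Its CTR values were 71.2, 40.1, 42.6, 85.6 and 141 CPM at PND540 and 29.3, 28.5, 33.4 and 19.1 CPM at PND21 (edgeR adjusted p = 0.0159).

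Aif1 and Cd68 rose in CTR, a call of Cd68 that was lost in 6 of 14 other fits. Aif1 averaged 26.2 ± 24.5 CPM in PND540 CTR (SD, n = 5) and 4.68 ± 1.01 CPM in PND21 CTR (SD, n = 4), a 5.59-fold rise with a log2 fold change of 2.48 (SE 0.63) and edgeR adjusted p = 0.0142. In GLLP its means were 11.1 ± 3.09 CPM at PND540 and 6.83 ± 0.952 CPM at PND21, without overlap between the libraries (log2 fold change 0.69, edgeR adjusted p = 0.0853). Cd68 averaged 19.9 ± 10.9 CPM in PND540 CTR and 7.49 ± 1.93 CPM in PND21 CTR, 2.66-fold with edgeR adjusted p = 0.0265, although CTR replicate 3 of PND540 lay within the PND21 range. In GLLP the log2 fold change of Cd68 was 0.44 (SE 0.31), and the test did not pass (edgeR adjusted p = 0.309).

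Csf1r and Adgre1 passed in neither diet group. Csf1r averaged 39.98 ± 14 CPM in PND540 GLLP and 39.7 ± 3.04 CPM in PND21 GLLP, a log2 fold change of 0.00 (SE 0.28). In CTR its averages were 43.5 ± 18.3 CPM at PND540 and 31.3 ± 5.03 CPM at PND21, with a log2 fold change of 0.48 (SE 0.30) and edgeR adjusted p = 0.255. Adgre1 had log2 fold changes of 0.23 (SE 0.36) in GLLP and 0.73 (SE 0.42) in CTR.

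The scavenger receptors had negative values. Mrc1 fell in CTR, to 3.56 ± 2.52 CPM at PND540 (SD, n = 5) against 14.9 ± 4.08 CPM at PND21 (SD, n = 4), a log2 fold change of -2.05 (SE 0.56) with edgeR adjusted p = 0.0198. In GLLP the averages were 6.34 ± 5.4 CPM at PND540 and 19.99 ± 2 CPM at PND21, and every PND540 library lay below every PND21 library, but the edgeR adjusted p was 0.058. Without PND540 GLLP replicate 1, the highest of its group, it was 0.0108. Cd163 had log2 fold changes of -0.74 (SE 0.67) in GLLP and -1.17 (SE 0.56) in CTR, neither past the threshold, and its ages overlapped in both diet groups. Without PND540 GLLP replicate 1 its GLLP value was -1.66 and was called lower (edgeR adjusted p = 0.0366). Mrc1 overlaps the miRNA gene Mir511 and a further annotated locus in the RefSeq annotation of GRCr8, and Adgre1 overlaps a pseudogene and a further locus; the use of strand in counting is not given in the sources used here.

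**Figure D4:**
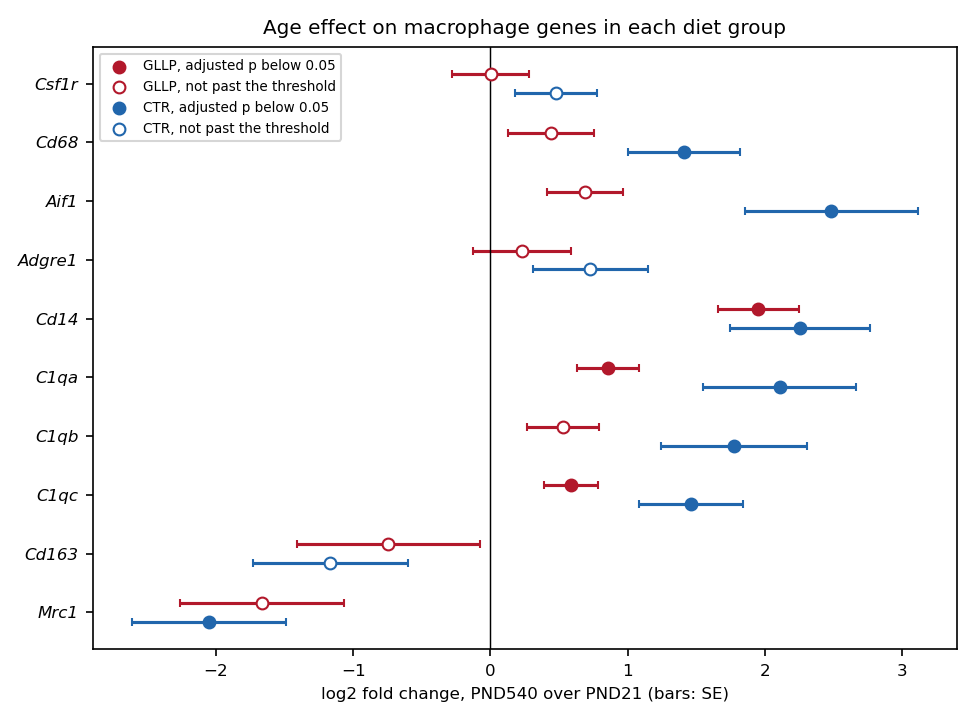
Log2 fold change of PND540 over PND21 for each macrophage gene in GLLP (upper point of each pair) and CTR (lower point), with bars of 1 SE; filled points passed the threshold. Cd14, C1qa and C1qc passed as higher in both diet groups, and Cd163 and Mrc1 lie below 0 in both, with Mrc1 in CTR the one that passed.

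The CTR calls were also made without PND540 CTR replicate 5, most of them at a smaller size. Without it 7 of 10 were higher and 1 lower, Adgre1 being added with a log2 fold change of 0.93 (edgeR adjusted p = 0.0365), in a fit that called 26% of all genes higher and 23% lower. C1qa then had a log2 fold change of 1.41 in place of 2.11, Aif1 1.75 in place of 2.48, C1qb 1.13 in place of 1.77, and Mrc1 -1.85 in place of -2.05. Leaving out any other single library left 3 to 7 members called in CTR, in fits that called 22.2% to 28.2% of all genes. The lowest count, without PND21 CTR replicate 4, held Aif1, Cd14 and Mrc1, where 22.4% of all genes were called. In GLLP 1 to 4 members were called with a library left out, in fits that called 24.8% to 38.8% of all genes. Without PND21 GLLP replicate 2 or 3 the call of Cd14 was the 1 made, and C1qc was also lost without PND540 GLLP replicate 1, 2 or 4. In the CTR fits Aif1 and Cd14 were called every time, and Mrc1 each time but without PND21 CTR replicate 3. Of the other members C1qb was lost in 5 of the 8: without PND540 CTR replicate 4 or any 1 of the 4 PND21 CTR libraries. Cd68 was lost in 4, without PND540 CTR replicate 4 or PND21 CTR replicate 1, 2 or 4. C1qa was lost without PND21 CTR replicate 2 or 4, and C1qc without PND21 CTR replicate 4.

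Gene length ran alongside this split. In the RefSeq annotation of GRCr8 the 6 members called higher in CTR span 1852 to 5907 bases, and the other 4 span 26653 to 155562 bases. Over all genes tested in CTR, the median age effect was 0.23 on the log2 scale for the third with the shortest span and -0.05 for the third with the longest. Without PND540 CTR replicate 5 these medians were 0.00 and 0.02, and that fit called the 6 short members and the longest, Adgre1, higher and Mrc1 lower. The part of gene span in the members' values was not tested. In GLLP the medians ran the other way, -0.09 for the third with the shortest span and 0.15 for the third with the longest, beside the higher C1qa, C1qc and Cd14. Of the genes tested, 93.7% in each diet group had a span.

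Genes of other cell types also differed between the ages. The fibroblast list summed to 155 to 595 CPM in PND540 GLLP and 5685 to 7149.8 in PND21 GLLP, and to 67 to 446 in PND540 CTR and 3968 to 5876 in PND21 CTR. Within that list Col1a1 and Col1a2, named after their values were seen and whose products form 1 collagen, went opposite ways in GLLP (-5.53 and 6.06 on the log2 scale) and in CTR (-5.61 and 5.67), across tables made with different annotations. Adipocyte genes summed to 145 to 336 CPM in PND540 GLLP and 26.4 to 92.3 in PND21 GLLP, and to 8.92 to 325 in PND540 CTR and 37.6 to 98.7 in PND21 CTR. For the endothelial list, whose cells can also express Mrc1, the sums were 25.8 to 61.2 and 94.3 to 115 CPM in GLLP at PND540 and PND21, and 20.9 to 51.9 and 90.1 to 98.4 CPM in CTR. The luminal epithelium list summed to 4130 to 5754 CPM in PND540 GLLP and 3001 to 3259 in PND21 GLLP. In CTR it summed to 4269 to 9530 CPM at PND540, highest in replicate 5, and 2984 to 3538 at PND21. Basal epithelium genes summed to 242 to 487 and 573 to 1340 CPM in GLLP at PND540 and PND21. Their CTR sums were 192 to 1371 and 329 to 834 CPM. Neutrophils can express Cd14, and their genes summed to 5.54 to 12 CPM in PND540 GLLP and 1.68 to 4.31 in PND21 GLLP. In CTR they summed to 2.64 to 16.1 CPM at PND540 and 0.642 to 2.31 at PND21. Within this list Mpo, named after its values were seen, averaged 6.21 CPM in PND540 GLLP and 0.151 in PND21 GLLP. Its CTR means were 4.76 CPM at PND540 and 0.147 at PND21. Of the 5 neutrophil genes tested for age in GLLP, 3 had positive values and 2 negative, and in CTR all 4 tested were positive. Elane was at 0 counts in 8 of 9 PND540 and all 7 PND21 libraries. The part of these lists in the values of the members was not tested.

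The balance of scavenger receptor to C1q counts within a library does not depend on how libraries are scaled. This ratio was chosen after the values had been seen and is given as a description. It sets long genes against short ones: Cd163 and Mrc1 span 33396 and 81687 bases, and the C1q genes 2848 to 5552. Short genes were high and long ones low in PND540 CTR replicate 5, and the annotations differ between the ages. The part of span and annotation in the ratio was not tested. Per 100 counts of the 3 C1q genes there were 21, 3.89, 4.55 and 10.4 counts of Cd163 and Mrc1 together in PND540 GLLP, against 46.5, 43.6 and 32.6 in PND21 GLLP. In CTR there were 0.876, 14, 10.5, 3.01 and 0.766 at PND540 and 31, 35.1, 38.8 and 39.4 at PND21. Every PND540 library lay below every PND21 library, and the PND540 libraries were spread far more widely, with CTR replicates 1 and 5 under 1 count per 100. Within C1q the chains kept closer proportions: C1qa counts per C1qc count ran from 0.656 to 1.00 in PND540 GLLP, 0.765 to 1.51 in PND540 CTR, 0.664 to 0.818 in PND21 GLLP and 0.602 to 0.742 in PND21 CTR.

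**Figure D5:**
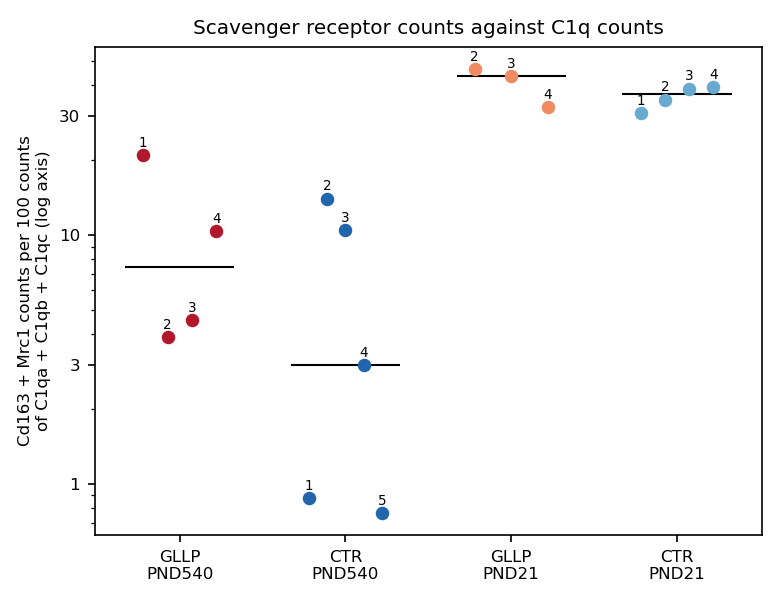
Counts of Cd163 and Mrc1 together per 100 counts of C1qa, C1qb and C1qc together (log axis), by group; points are libraries with their replicate numbers and lines are group medians. The 9 PND540 libraries lie between 0.766 and 21.0, all below the 7 PND21 libraries at 31.0 to 46.5.

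Whether the diet effect differed between the ages was tested directly, and no macrophage gene passed. With edgeR 0 of 10 were called, against 0.0917% of the 14178 genes tested, 1 of the 10 had an unadjusted p below 0.05 (5.17% of all genes), and DESeq2 called 0 of the 10. That gene was Aif1, with a log2 difference of -1.79 (SE 0.74) and edgeR adjusted p = 0.738, which came to -1.07 without PND540 CTR replicate 5. The same test compares the age effects of the diet groups: for C1qa the difference was -1.24 (SE 0.67), for C1qb -1.23 (SE 0.66) and for C1qc -0.86 (SE 0.47), each with adjusted p = 0.738. For Cd14 it was -0.29 (SE 0.63). Of the 10 values 8 were negative, with a median of -0.67 and of -0.03 over all genes tested.

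Lists of other macrophage genes, 5 lists with 81 genes in all, were set beside the members. In the diet comparison at PND21 1 of 62 tested was called, against 1.11% of all genes. This was Gpnmb, a glycoprotein of phagocyte lysosomes (edgeR adjusted p = 0.0348). It rose to 14 ± 2.92 CPM in PND21 GLLP (SD, n = 3) against 6.89 ± 0.932 CPM in PND21 CTR (SD, n = 4). That call was lost with the replicate number as a block, in a joint fit of the ages, and in 6 of 7 fits that left out a library, all but the one without GLLP replicate 2. DESeq2 called 9 of 69 fitted at PND21, 8 higher and 1 lower, beside 3.19% and 1.41% of all genes it fitted. In PND540 glands 0 of 67 were called between the diets with edgeR (0% of all genes). With edgeR 0 had an unadjusted p below 0.05 (0.833% of all genes), and DESeq2 called 0 (0.0101% of all genes). In the test of the diet effect between the ages edgeR called 0 of 64 (0.0917% of all genes), and DESeq2 0 of 70 fitted (0.286%). With edgeR 8 of the 64 had an unadjusted p below 0.05, as did 5.17% of all genes.

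Between the ages these genes also moved in both directions. In GLLP 19 of 62 were higher at PND540 and 8 lower, and in CTR 24 of 63 were higher and 5 lower, beside the shares of all genes given above; 16 were higher in both groups. Without PND540 CTR replicate 5 the CTR counts were 29 higher and 8 lower of 62, where 26% and 23% of all genes were called. Without PND540 GLLP replicate 1 the GLLP counts were 13 higher and 10 lower of 62, where 15.9% and 14.3% of all genes were called. Genes of myeloid signalling and Fc receptors were called higher or not at all. In GLLP 9 of 14 were higher (19.1% of all genes), and in CTR 10 of 14 (17.3% of all genes). Fcgr3a, a receptor for antibody, stood at 7.35 ± 1.56 CPM in PND540 GLLP and 0.462 ± 0.0902 in PND21 GLLP (log2 fold change 3.96), and at 17.8 ± 14.7 in PND540 CTR and 0.516 ± 0.204 in PND21 CTR (5.09); Fc receptor genes have close relatives, so its counts are uncertain. Cx3cr1, the fractalkine receptor, rose with log2 fold changes of 3.08 in GLLP and 3.06 in CTR (edgeR adjusted p = 0.00396 and 0.0012).

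Of the engulfment and lysosome genes 5 of 14 were higher and 2 lower in GLLP (19.1% and 17.1% of all genes). In CTR 6 of 14 were higher and 1 lower (17.3% and 13.2% of all genes). Ctss, a lysosomal protease used in antigen processing, rose to 37.4 ± 11.3 CPM in PND540 GLLP against 8.6 ± 1.5 in PND21 GLLP, and to 53.2 ± 25.9 in PND540 CTR against 7.82 ± 1.55 in PND21 CTR. Lyz2, macrophage lysozyme, rose with log2 fold changes of 2.83 in GLLP and 2.88 in CTR. The receptor tyrosine kinase gene Axl, which acts in the uptake of dead cells, fell in GLLP (-1.19, edgeR adjusted p = 0.00222).

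Of the resident macrophage genes 1 of 9 was higher and 2 lower in GLLP (19.1% and 17.1% of all genes). In CTR 0 of 9 were called higher and 2 lower with edgeR (17.3% and 13.2% of all genes). Lyve1, a hyaluronan receptor of resident macrophages and of lymphatic endothelium, fell in CTR, to 6 ± 4.17 CPM at PND540 against 23.2 ± 6.26 CPM at PND21 (edgeR adjusted p = 0.0265), a call that was lost without PND21 CTR replicate 1, 2 or 3. In GLLP it was at 11 ± 9.89 CPM at PND540 and 29.9 ± 2.33 CPM at PND21, with edgeR adjusted p = 0.0945. F13a1, a transglutaminase subunit gene, fell in CTR (-2.36, edgeR adjusted p = 0.0213), except without PND21 CTR replicate 3. In GLLP the chemokine genes Pf4 (-1.43) and Ccl24 (-1.15) fell, and the growth factor gene Igf1, which many cell types make, rose (2.11). The call of Ccl24 was lost in 5 of 7 fits that left out a library (without any 1 of the 3 PND21 GLLP libraries or PND540 GLLP replicate 2 or 3), and that of Igf1 without PND21 GLLP replicate 4.

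Among growth and lineage factors 1 of 14 was higher and 2 lower in GLLP (19.1% and 17.1% of all genes). In CTR 4 of 14 were higher and 1 lower (17.3% and 13.2% of all genes). Spi1, which encodes PU.1, rose in CTR to 12.7 ± 7.97 CPM at PND540 against 3.02 ± 0.776 CPM at PND21 (edgeR adjusted p = 0.00867), and was at 6.64 ± 1.83 CPM in PND540 GLLP and 4.06 ± 0.848 in PND21 GLLP. The ligand genes of Csf1r, named for that role after their values were seen, were not called: Csf1 had 22.8 ± 8.94 CPM in PND540 GLLP, 27 ± 15.4 in PND540 CTR, 16.6 ± 1.2 in PND21 GLLP and 14 ± 1.98 in PND21 CTR. Il34, the other ligand gene, had 4.64 ± 1.77 CPM in PND540 GLLP, 6.15 ± 6.08 in PND540 CTR, 3.96 ± 0.32 in PND21 GLLP and 4.62 ± 0.542 in PND21 CTR. Of the inflammatory and polarisation genes 3 of 11 were higher and 2 lower in GLLP, and 4 of 12 higher and 1 lower in CTR. These counts stand beside the same shares of all genes. Ncf1, a subunit of the phagocyte oxidase, rose with log2 fold changes of 1.97 in GLLP and 3.14 in CTR. The inflammatory cyclooxygenase gene Ptgs2, which many cell types express, fell in both, to 0.176 ± 0.154 CPM in PND540 GLLP against 1.71 ± 0.184 in PND21 GLLP, and to 0.0407 ± 0.0608 in PND540 CTR against 2 ± 0.282 in PND21 CTR.

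The genes most like the members across libraries were sought by Pearson's r between each gene and the mean of the 10 members, on log2 CPM less the group mean over 16 libraries, among 9307 other genes of at least 5 CPM at each age. They are given as a description: the libraries share their scaling, and single libraries weigh heavily. The 8 highest were Il4r (r = 0.91), Lgals3 (0.91), RT1-M3-1 (0.88), Padi1 (0.88), Tmem43 (0.87), Tnfsf12 (0.87), Sorbs3 (0.87) and Krba1 (0.86). Lgals3, which encodes galectin-3, was the 1 of them on a macrophage list here. Without PND540 CTR replicate 5, Il4r and Lgals3 ranked at 2 and 3 and the other 6 at 16 to 31. Among the members themselves, r with the mean of the other 9 ran from 0.16 for Cd163 to 0.71 for C1qc. Without PND540 CTR replicate 5 it was 0.71 in place of 0.19 for Adgre1 and 0.80 in place of 0.54 for Csf1r.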

How the data were processed

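Ventral prostate RNA was sequenced in 16 libraries, and the authors deposited whole-number read counts per gene, 1 table an age, 1 column a library. STAR, edgeR 3.34.0 and Rnor_6.0 are named without roles, per the submitters' processing notes. The counting tool, annotation and strandedness are not stated by any source used here. At PND21 the deposited counts cover 28688 entries, and at PND540 24218 entries. Neither table is normalized, and 0 of their sample columns were left without a group.

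Counts were tested with edgeR 4.0.16 (R 4.3.3): filterByExpr, TMM scaling, a robust quasi-likelihood fit and Benjamini-Hochberg adjustment at 0.05 over all genes tested. Diet was tested within each age's own table, and age and the diet-by-age difference over the 19709 shared names. The code was tested on simulated data. Alternatives were DESeq2 1.42.0, RLE factors, unscaled library sizes, an unfiltered fit, a joint fit, the replicate number as a block, and leaving out each library. Figures were drawn with matplotlib 3.10.9.

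The members and lists were chosen with earlier results of these data known. All members are named, and of each list at most the 4 genes with the smallest p in a comparison, except where stated. Likeness used a prior count of 2. Replicates differed beyond sampling noise in all 25 pairs within groups (chi-square over its degrees of freedom 32.2 to 880), and each was kept as a sample.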

Additional observations from a re-analysis of the deposited data

Results flagged for a closer look

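In PND540 CTR, replicate 5 stood far from the other 4 libraries for 4 of the 10 macrophage genes. It had 68 CPM of Aif1, where the next library had 24. Its C1qa level was 212 CPM against 82.6 in the next library, and its C1qb level 173 CPM against 68.9. For Cd14 it had 1401 CPM, and the next library 612. At PND21, CTR replicate 3 had 21 CPM of Mrc1, and the other 3 CTR libraries had at most 13. These are 5 of 30 sets of values examined by Dixon's criterion in groups of 4 or 5 libraries. Chance alone passes about 5% of such sets where values are independent and normally distributed. The sets here are CPM of the same libraries, and 4 of the 5 flags come from PND540 CTR replicate 5. The count of flags therefore cannot be set against that 5%.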

How the results depend on the processing

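The count of genes called for diet at PND21 was the least steady: 166 became 650 with library size alone, 941 with DESeq2, 27 with the replicate number as a block and 40 in a joint fit, and 62 to 1509 with a library left out, when 0 to 1 members were called. DESeq2 called 1 member at PND21, 2 genes and 0 members at PND540, 5 members for age in GLLP and 49 genes in the diet-by-age test. With a library left out, age in GLLP gave 3434 to 5239 genes and 1 to 4 members, age in CTR 3040 to 6574 genes and 3 to 8 members, and the diet-by-age test 7 to 16 genes and 0 members. At PND540 no such fit called any gene for diet.

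Directions turned for small values; the ranges are over the fits that leave out 1 library each. For diet at PND21, Cd14 ran from -0.20 (without CTR replicate 4) to 0.28, and was -0.16 without GLLP replicate 4. For diet at PND540, Cd14 ran from -0.45 to 0.26 (without CTR replicate 5) and was 0.26 with the block. The block, too, takes that library out of the contrast, since no GLLP library shares its number. Csf1r ran from -0.29 to 0.13 (without CTR replicate 4), with 0.08 without GLLP replicate 3, and Adgre1 from -0.015 (without GLLP replicate 4) to 0.52. For age in GLLP, Csf1r was -0.0046 with RLE factors, -0.14 with library size alone, -0.0060 with DESeq2 and -0.10 with the block. It ran from -0.19 (without PND540 GLLP replicate 4) to 0.21, with -0.06 and -0.04 without replicate 2 of PND21 and of PND540, and Adgre1 ran from -0.0075 (without PND540 GLLP replicate 4) to 0.44. In the diet-by-age test, Cd14 ran from -0.51 to 0.19 (without PND540 CTR replicate 5) and was 0.24 with the block, which takes out the same library. Cd163 ran from -0.50 to 0.80 and Mrc1 from -0.29 to 0.79, both lowest without PND540 GLLP replicate 1. Apart from what the block takes out, the cause was not tested.

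Libraries with the same replicate number shared little: correlations of their deviations from the group means ran from -0.15 to 0.29, so the numbers were not taken as pairs. With the block, age in GLLP called 3814 genes and 4 members (Cd163, Mrc1, C1qa and Cd14), and age in CTR 6012 genes and 6 members. A library whose number no other library of a comparison shares is taken out of the contrast by the block. For age this was PND540 GLLP replicate 1 in GLLP and PND540 CTR replicate 5 in CTR. For diet it was PND21 CTR replicate 1 at PND21 and PND540 CTR replicate 5 at PND540. Unscaled library sizes put the all-gene median at 0.14 for diet at PND21, -0.16 for age in GLLP and -0.05 for age in CTR, and called Cd14 higher and Mrc1 lower for age in GLLP; 40.3% of the GLLP age calls were then higher, in place of 52.7%. Differences of annotation between the tables bear on every age value, and p-values rest on 3 to 5 libraries a group.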

Other observations

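Summed over the 10 macrophage genes, PND540 libraries held 519 to 951 CPM in GLLP and 571 to 2053 CPM in CTR, and PND21 libraries held 251 to 378 CPM in GLLP and 161 to 370 CPM in CTR. Every PND540 library lay above every PND21 library with Cd14 in the sum. Without Cd14 the ages overlapped: the other 9 genes summed to 147 to 269 CPM in PND540 GLLP and 156 to 202 CPM in PND21 GLLP, and to 162 to 652 CPM in PND540 CTR and 104 to 176 CPM in PND21 CTR. Lymphocyte genes were measured in the same glands: the T and NK cell list summed to 7.90 to 16.2 CPM in PND540 GLLP and 8.03 to 12.6 CPM in PND21 GLLP, and to 11.4 to 24.4 CPM in PND540 CTR and 7.13 to 9.41 CPM in PND21 CTR. Of 10 T and NK cell genes tested between the ages, 1 was higher and 2 lower in GLLP, and 6 were higher and 0 lower in CTR, with edgeR, where the shares of all genes were 19.1% and 17.1% in GLLP and 17.3% and 13.2% in CTR. Jchain, the joining chain of secreted antibody made by plasma cells, was named after its values were seen. It rose at PND540 in both diet groups, by 4.23 on the log2 scale in GLLP and 5.75 in CTR. Its spread at PND540 was wide: 1.91 to 27.5 CPM in GLLP and 2.08 to 66.8 CPM in CTR. At PND21 it ran from 0.0717 to 0.752 CPM in GLLP and 0.128 to 0.499 CPM in CTR. Of the mast cell genes 4 of 6 were lower in GLLP and 4 of 7 in CTR, and 0 were higher, beside the same shares of all genes, with Cpa3, a mast cell protease gene also named after its values were seen, at -2.28 and -2.67 on the log2 scale. The diet-by-age test called 0 of 11 T and NK cell genes and 0 of 7 mast cell genes.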
